A study of Homo sapiens with 4 samples.

Results

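The miR-17-92a-1 polycistron is a run of 6 miRNA hairpins in 1 primary transcript, MIR17HG, and 9 of its mature miRNAs were followed here. They were taken by name, as the rows of the deposited tables called hsa-miR-17-5p, hsa-miR-17-3p, hsa-miR-18a-3p, hsa-miR-19a-5p, hsa-miR-20a-5p, hsa-miR-20a-3p, hsa-miR-19b-3p, hsa-miR-92a-3p and hsa-miR-92a-1-5p, and they are 9 of 2366 human miRNA rows. The other arms of the cluster, miR-18a-5p, miR-19a-3p and miR-19b-1-5p, had no row under these names among the 2366. The miR-18a, miR-19a and miR-19b-1 hairpins are therefore each judged by a single arm. Small RNA was sequenced from K562, an established human chronic myeloid leukaemia line, carrying dCas9-KRAB, an inactive Cas9 joined to a repressor domain that silences the gene its guide RNA points to. ERH knockdown cells had a guide RNA against ERH and 5 days of doxycycline at 0.05 µg/ml, and control cells carried the same guide RNA without doxycycline. Each of 2 guide RNAs had its own polyclonal line, which gave 2 libraries per group. Every control thus also carries dCas9-KRAB and an ERH guide RNA, and an effect of doxycycline itself cannot be told apart from that of the knockdown. ERH mRNA is not measured by small-RNA libraries, so the depth of the knockdown was not checked.

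Primary miRNA transcripts are cut in the nucleus by the Microprocessor, a complex of the nuclease Drosha and its partner DGCR8, into hairpins that Dicer then turns into a short duplex. One strand of the duplex is kept in Argonaute and pairs with messenger RNAs mainly through its seed, bases 2 to 8, while the other strand is mostly lost. ERH is a small protein that binds the Microprocessor, and the title of the study names clustering of hairpins as an aid to the processing of suboptimal ones. The polycistron is driven by MYC and is amplified in B cell lymphomas. Its miR-17 and miR-20a products are known to repress E2F1, CDKN1A and BIM, and miR-92a-3p is known as a brake on blood vessel growth.

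The mature sequences show which members share a seed and so a set of targets. They are from RefSeq (GRCh38.p14), 5′ to 3′, in the order of the arms along the transcript, with the seed in capitals.
hsa-miR-17-5p: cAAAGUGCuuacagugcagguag
hsa-miR-17-3p: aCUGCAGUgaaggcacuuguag
hsa-miR-18a-3p: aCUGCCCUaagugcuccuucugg
hsa-miR-19a-5p: aGUUUUGCauaguugcacuaca
hsa-miR-20a-5p: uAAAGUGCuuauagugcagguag
hsa-miR-20a-3p: aCUGCAUUaugagcacuuaaag
hsa-miR-19b-3p: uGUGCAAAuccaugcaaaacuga
hsa-miR-92a-1-5p: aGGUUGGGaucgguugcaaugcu
hsa-miR-92a-3p: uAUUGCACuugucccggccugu

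miR-17-5p and miR-20a-5p share a seed, and the other 7 members each have a seed that no further member has. Counted from 1 at the 5′ end, the changes that turn miR-17-5p into miR-20a-5p are C1U and C12U. A single change, C1A, turns miR-17-5p into miR-106a-5p of the paralogous cluster on chromosome X. miR-19a-3p likewise becomes miR-19b-3p by U11C alone. The sources used here do not say how reads matching more than 1 such miRNA were assigned.

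The 6 hairpins lie on the plus strand at chr13:91350605-91351391 (GRCh38), a stretch of 787 bases. In 2 of the 3 MIR17HG transcripts of GENCODE 29 the cluster lies within an exon, and in the other it lies in an intron. Along the transcript the order is miR-17, miR-18a, miR-19a, miR-20a, miR-19b-1 and miR-92a-1, with 35 to 92 bases between neighbours. The RefSeq hairpins of the members that moved least and most are shown here, with both mature arms in capitals.
MIR18A, chr13:91350751-91350821: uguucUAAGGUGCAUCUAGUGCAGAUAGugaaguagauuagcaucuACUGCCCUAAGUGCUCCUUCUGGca
MIR19A, chr13:91350891-91350972: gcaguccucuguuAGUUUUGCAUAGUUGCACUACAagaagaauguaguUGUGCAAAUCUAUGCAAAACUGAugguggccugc
MIR92A1, chr13:91351314-91351391: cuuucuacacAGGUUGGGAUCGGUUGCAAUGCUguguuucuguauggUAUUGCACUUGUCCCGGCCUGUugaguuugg

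The 9 members made up about as many reads as all other miRNAs together. They held 49.4% and 49.9% of the miRNA reads in knockdown libraries with guide RNAs 1 and 2, against 53.6% and 54.9% in controls. The groups did not overlap, with means of 49.6% ± 0.40 in knockdown libraries and 54.3% ± 0.95 in control libraries (SD, n = 2). miR-19b-3p ranked first of all miRNAs in each library and miR-20a-5p second. miR-17-5p and miR-92a-3p took the next 2 ranks, in either order. The libraries held 2227374 and 2393565 miRNA reads after knockdown and 1430434 and 2476700 in controls. The erythroid miR-451a, known to be abundant in such cells, was counted 53617 and 57755 times after knockdown, against 36108 and 60800 times in controls. miR-122-5p of liver had 1 to 5 reads per library.

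**Figure D1:**
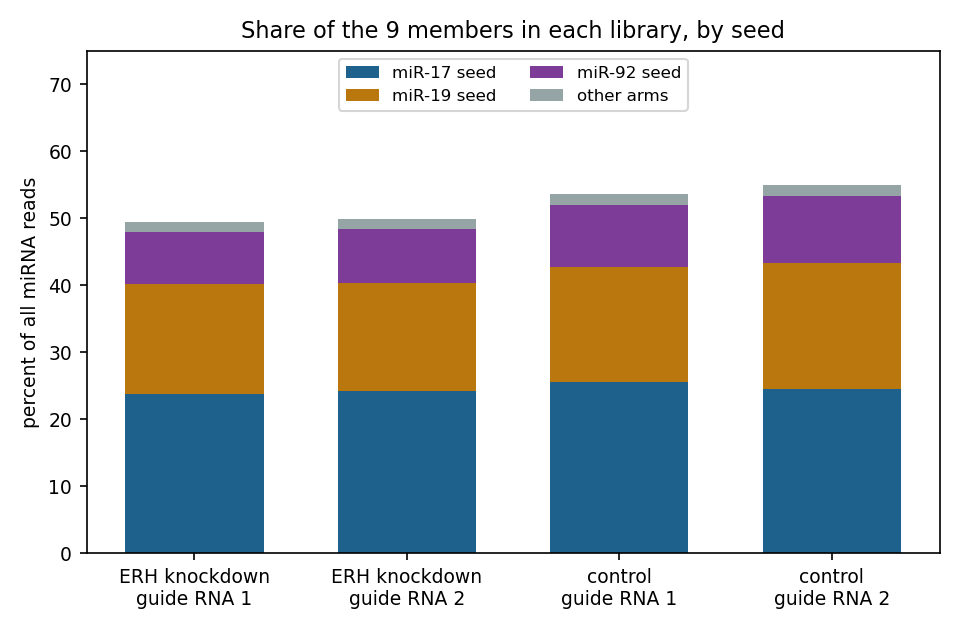
Percent of all miRNA reads (y axis) taken by the 9 members in each of the 4 libraries (x axis), stacked by seed, with 1 bar per library. The whole bars reach 49.4% and 49.9% in the knockdown libraries and 53.6% and 54.9% in the controls.

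Relative to the bulk of tested miRNAs, 8 of the 9 members fell after ERH knockdown and 0 rose. Counts were scaled with TMM, which sets the bulk of miRNAs level between libraries, and tested with the quasi-likelihood test of edgeR. A change was called at a Benjamini-Hochberg adjusted p under 0.05 over all 464 tested miRNAs. All 9 members passed the filter on low counts, and 25.2% of all tested miRNAs fell while 25.6% rose. The median log2 fold change, knockdown over control, was -0.58 over the members and 0.06 over all tested miRNAs. Within guide RNA 1 the median over the members was -0.57, and within guide RNA 2 it was -0.55. Because nothing shows that a guide RNA's cultures were repeated, the p-values speak only for the spread among these 4 libraries.

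These falls depend on what the libraries are scaled to. Library size alone moves the median of all tested miRNAs up by 0.44 on the log2 scale, and scaling to the 2 added spike-in RNAs moves it up by 0.68. Of all calls 50.4% were higher after knockdown with TMM, 86.9% with library size and 95.9% with the spike-ins. With library size 5 members fell, namely miR-92a-1-5p, miR-19a-5p, miR-92a-3p, miR-20a-3p and miR-19b-3p, against 8.84% of all tested miRNAs, while miR-18a-3p rose, against 58.8%. With the spike-ins 0 of the 9 were called in either direction (edgeR), while of all 464 tested miRNAs 186 rose and 8 fell. An unadjusted p under 0.05 was reached by 0 of the 9 and by 225 of the 464. With the spike-ins and guide RNA as a replicate block, a fit chosen after seeing the data, 5 members rose, against 72.6% of all tested miRNAs, and 2 fell, against 3.66%. The 2 were miR-19a-5p (-0.70 ± 0.10, adjusted p = 1.0e-11) and miR-92a-1-5p (-0.45 ± 0.08, adjusted p = 1.2e-07; SE). This fit pools the 2 spike-ins, and its SE leaves out the disagreement between them that is given below. A scaling shifts members and other miRNAs alike: the median of the members minus that of all tested miRNAs was -0.65 with TMM, with library size and with the spike-ins. The other changes below are therefore given relative to the bulk of miRNAs.

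The reads of the members per spike-in read were 18.6 and 25 after knockdown and 16.6 and 23.4 in controls. That is 1.12 times the control with guide RNA 1 and 1.07 times with guide RNA 2. All other miRNAs together stood at 1.32 and 1.30 times the control on the same scale. The spike-ins themselves did not keep step: the frog miR-427 spike-in had 7.78 and 9.82 reads per read of the fly miR-14 spike-in after knockdown, against 7.14 and 7.18 in controls. Against miR-427 alone the members stood at 1.11 and 1.03 times the control, and against miR-14 alone at 1.21 and 1.41 times.

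**Figure D2:**
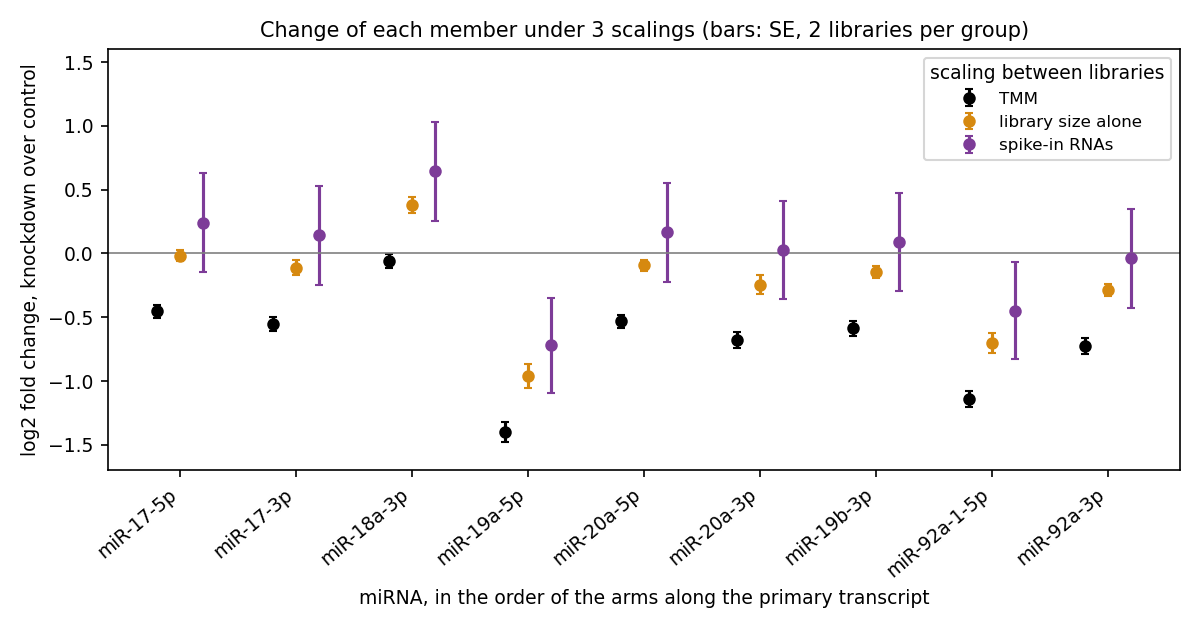
Log2 fold change of each member, knockdown over control (y axis), with TMM, with library size alone and with spike-in scaling (x axis: members in transcript order; points: fit; bars: SE, 2 libraries per group). With TMM 8 of the 9 members lie between -1.40 and -0.45 and miR-18a-3p at -0.06. miR-92a-1-5p and miR-19a-5p are the lowest 2 under each of the 3 scalings. A change of scaling shifts all members nearly alike, so this order is not separate support.

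At the first hairpin both arms were lower by a similar amount. miR-17-5p, the guide strand and a founding member of its seed family, had 85154 and 89164 CPM (read counts scaled with TMM) after knockdown, against 118648 and 120060.4 CPM in controls. Both knockdown libraries lay below both controls. It fell by 0.45 ± 0.05 on the log2 scale (SE, adjusted p = 1.5e-06), or to 73% of the control level. The other strand, miR-17-3p, had 6411 and 6819 CPM after knockdown and 9369 and 9989.6 CPM in controls. It fell by 0.55 ± 0.05 (adjusted p = 7.2e-07), with no overlap between groups.

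The exception was miR-18a-3p, the only arm measured of the miR-18a hairpin. That hairpin is known to be bound by the splicing factor hnRNP A1 before Drosha cuts it, and any bearing on these values was not tested. miR-18a-3p had 3349 and 3498 CPM after knockdown, against 3673 and 3454 CPM in controls, and the groups overlapped. Its log2 fold change was -0.06 ± 0.06 (adjusted p = 0.41), at -0.13 with guide RNA 1 and 0.02 with guide RNA 2. With library size alone it was 0.38 (adjusted p = 4.5e-06) and with spike-in scaling 0.64 (adjusted p = 0.17).

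The next hairpin held the member with the largest fall. miR-19a-5p, the strand opposite miR-19a-3p, had 293 and 289.5 CPM after knockdown and 717 and 817 CPM in controls. The raw counts behind these levels were 772 and 793 after knockdown, against 904 and 1694 in controls. Its knockdown level was 37.9% of the control, a fall of 1.40 ± 0.08 on the log2 scale (adjusted p = 2.4e-09). It was larger with guide RNA 2 (-1.49) than with guide RNA 1 (-1.29), and that difference was not tested. Of all 464 tested miRNAs, 9 had a lower value.

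At the miR-20a hairpin both arms fell. miR-20a-5p, which shares its seed with miR-17-5p, had 115351 and 122671 CPM after knockdown, against 170886 and 172995 CPM in controls. It fell by 0.53 ± 0.05 on the log2 scale (adjusted p = 4.4e-07). The strand opposite, miR-20a-3p, had 1683 and 1881 CPM after knockdown, against 2974 and 2741 CPM in controls, and it fell by 0.68 ± 0.07 (adjusted p = 5.4e-07). Its log2 ratio was -0.82 within guide RNA 1 and -0.54 within guide RNA 2.

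miR-19b-3p, the miRNA row with the most reads in each library, had 139419 and 140188 CPM after knockdown and 195090.1 and 224306 CPM in controls. It fell by 0.58 ± 0.06 on the log2 scale (adjusted p = 8.8e-07), and every knockdown library lay below every control. It is also made from a second hairpin, MIR19B2, on chromosome X, as miR-92a-3p is from MIR92A2, and their reads cannot be split by locus. Whether its level, rank and share include reads of miR-19a-3p, which has 1 differing base, was not tested.

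The last hairpin parted most between its arms. miR-92a-3p, the guide strand, had 65274 and 71032 CPM after knockdown, against 104839.6 and 120236 CPM in controls, and it fell by 0.72 ± 0.06 on the log2 scale (adjusted p = 2.2e-07). miR-92a-1-5p, the strand opposite and made at this locus alone, had 797 and 814 CPM after knockdown, against 1749.7 and 1799.7 CPM in controls. It fell by 1.14 ± 0.06 (adjusted p = 1.2e-09), with nearly the same log2 ratio in guide RNA 1 (-1.13) and guide RNA 2 (-1.14). Its knockdown level was 45.4% of the control.

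**Figure D3:**
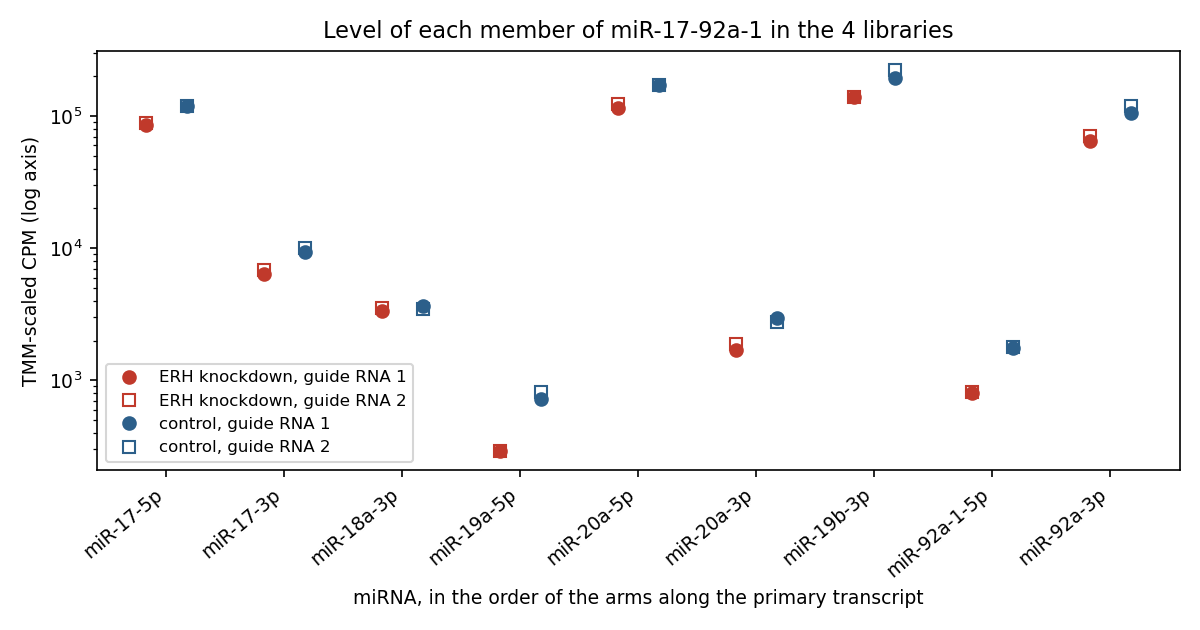
Level of each member in the 4 libraries, as TMM-scaled CPM on a log axis (y), in transcript order (x). Red symbols are knockdown and blue control libraries, filled circles guide RNA 1 and open squares guide RNA 2. The knockdown symbols lie below the control symbols for each member but miR-18a-3p, where 3349 and 3498 CPM overlap with 3673 and 3454 CPM. Of all tested miRNAs 25.2% were called as falling. How many separate in this way was not counted, so the separation is a description only.

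By position, the change did not run one way along the transcript over all 6 hairpins. Taking each hairpin by its most abundant tested arm, the log2 fold changes from first to last were -0.45, -0.06, -1.40, -0.53, -0.58 and -0.72. The smallest and the largest fall thus belonged to neighbours, miR-18a and miR-19a, whose hairpins are 69 bases apart. For miR-18a only the 3p arm and for miR-19a only the 5p arm was measured, so a difference between these hairpins cannot be told apart from one between arms. Without miR-18a and miR-19a, the falls grew from first to last (-0.45, -0.53, -0.58 and -0.72), an order that was not tested. As count ratios, the steps between neighbours in that order were within their SE (0.08 ± 0.14, 0.05 ± 0.16 and 0.14 ± 0.15).

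**Figure D4:**
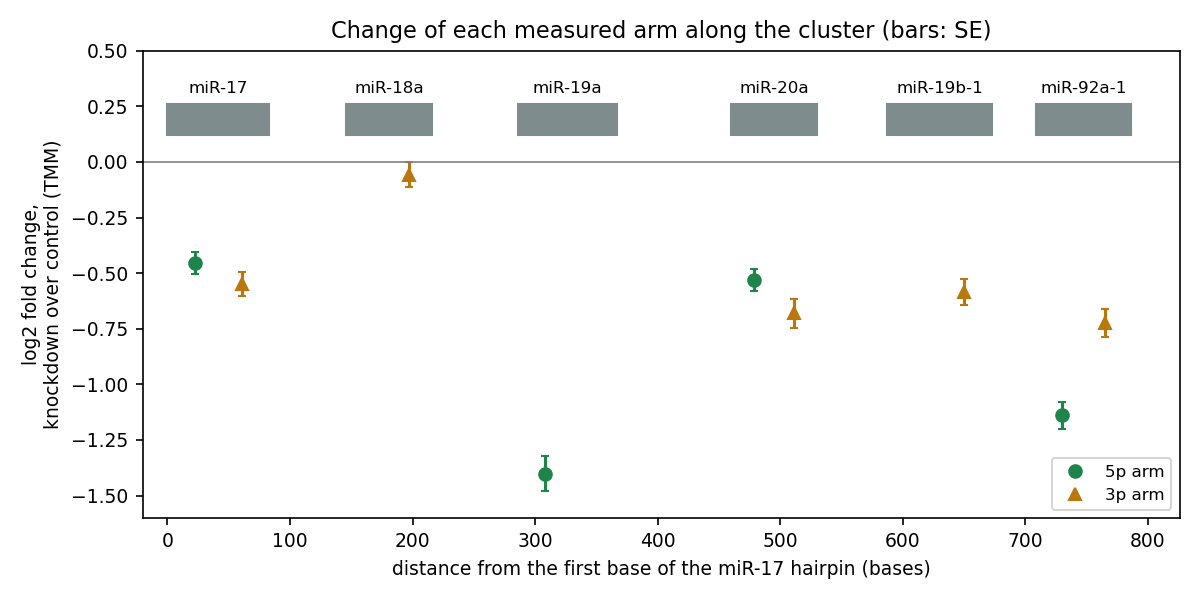
Log2 fold change of each measured arm, knockdown over control with TMM scaling (y axis; bars: SE), against the distance from the first base of the miR-17 hairpin (x axis), with the 6 hairpins drawn to scale as grey boxes. miR-18a-3p at -0.06 and miR-19a-5p at -1.40 stand at neighbouring hairpins. At the 3 hairpins with both arms measured, the change differs most between the arms of miR-92a-1.

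A ratio of 2 members inside 1 library is free of any scaling, and the ratios that moved most held miR-18a-3p or miR-19a-5p. There were 11.4 and 12.1 reads of miR-18a-3p per read of miR-19a-5p after knockdown, against 5.12 and 4.23 in controls. The log2 ratio changed by 1.34 ± 0.18 (SE), the same way with both guide RNAs (1.16 and 1.51). There were 290.3 and 308 reads of miR-17-5p per read of miR-19a-5p after knockdown, against 165 and 147 in controls, a change of 0.94 ± 0.16. Both ratios were higher in each knockdown library than in each control. There were 34.4 and 35.1 reads of miR-20a-5p per read of miR-18a-3p after knockdown, against 46.5 and 50.1 in controls (log2 change of miR-18a-3p over miR-20a-5p 0.47 ± 0.15).

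The 4 abundant arms kept closer to each other. There was 0.738 and 0.727 read of miR-17-5p per read of miR-20a-5p after knockdown, against 0.694 and 0.694 in controls, a log2 change of 0.08 ± 0.14. miR-19b-3p stood at 2.14 and 1.97 reads per read of miR-92a-3p after knockdown and at 1.86 and 1.87 in controls, a change of 0.14 ± 0.15. The ratio of miR-20a-5p to miR-19b-3p was 0.827 and 0.875 after knockdown and 0.876 and 0.771 in controls, and there the groups overlapped. For miR-17-5p over miR-92a-3p the ratio was 1.30 and 1.26 after knockdown, against 1.13 and 0.999 in controls, a change of 0.27 ± 0.16 without overlap between groups.

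Of the 15 hairpin pairs of the cluster 0 were called by limma on the log2 ratios, with p-values adjusted over 240 pairs in 33 clusters (0.00% of all pairs called). The adjusted p was 0.10 for miR-18a-3p over miR-19a-5p and 0.11 for miR-17-5p over miR-19a-5p. An unadjusted p under 0.05 was reached by 8 of the 15 pairs, against 48 of all 240. The 15 ratios reuse the same arms, so they are not separate results. Where the prior variance follows read depth, 9 of the 15 were called against 13.3% of all pairs. Those 9 were all pairs that hold miR-18a-3p or miR-19a-5p. Which pairs were called depended on the library left out, and such a fit leaves 1 library in a group, so only changes are given. With 1 library left out, the log2 ratio of miR-18a-3p over miR-19a-5p changed by 1.20 to 1.47. That of miR-17-5p over miR-19a-5p changed by 0.85 to 1.02, and that of miR-17-5p over miR-92a-3p by 0.18 to 0.36. Each time the lower value came without control replicate 2 and the higher without control replicate 1.

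**Figure D5:**
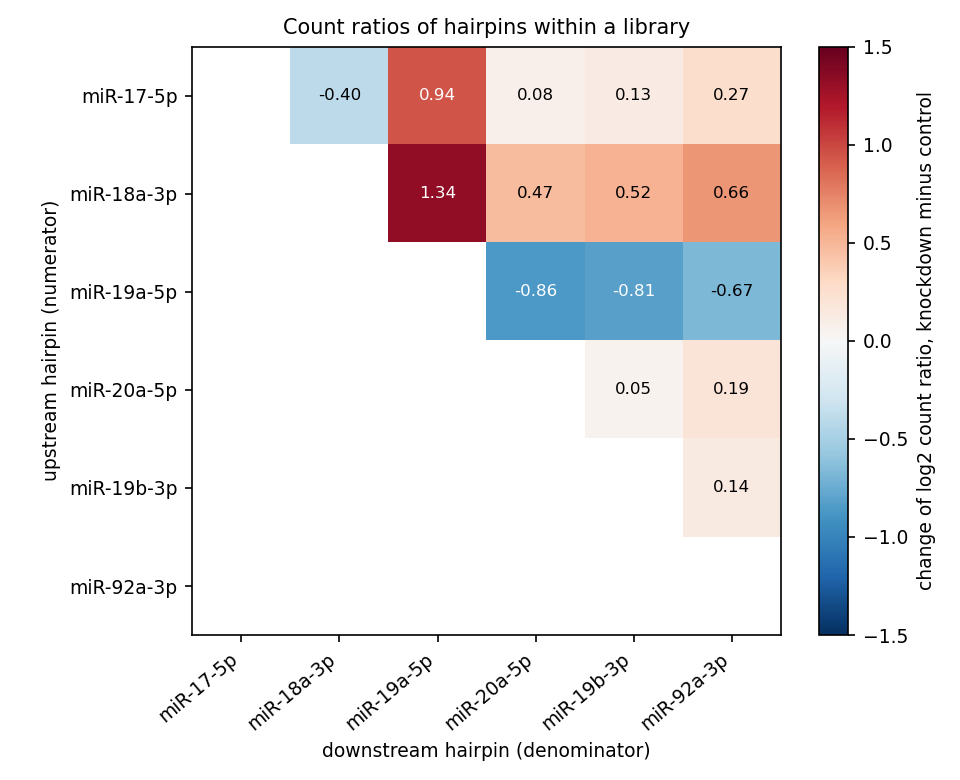
Change of the log2 ratio of counts, knockdown minus control, for the 15 pairs of hairpins, with the upstream hairpin as numerator (rows) and the downstream one as denominator (columns), each hairpin by its most abundant tested arm. The row and column of miR-18a-3p and of miR-19a-5p hold the strong colours, up to 1.34 where the 2 meet, and the pairs among the other 4 arms lie between 0.05 and 0.27.

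By arm, the strand of lower count had the lower log2 fold change at each of the 3 hairpins with both arms measured. At miR-92a-1 there were 81.9 and 87.2 reads of the 3p arm per read of the 5p arm after knockdown, against 59.9 and 66.8 in controls. The log2 ratio of 5p to 3p changed by -0.42 ± 0.13 (SE), at -0.45 with guide RNA 1 and -0.38 with guide RNA 2. At miR-17 there were 13.2 ± 0.15 reads of the 5p arm per read of the 3p arm after knockdown, against 12.3 ± 0.46 in controls (SD, n = 2), a change of 0.10 ± 0.12. At miR-20a there were 68.5 and 65.2 after knockdown, against 57.5 and 63.1 in controls (change 0.15 ± 0.13).

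None of the 3 arm ratios was called by limma, adjusted over 94 hairpins with both arms tested, of which 0.00% were called (19 at an unadjusted p under 0.05). The adjusted p was 0.19 for miR-92a-1, 0.68 for miR-17 and 0.58 for miR-20a. With the prior variance by depth, miR-92a-1 was called (adjusted p = 0.020), as were 12.8% of all hairpins. Which arm ratios were called depended on the library left out, and such a fit leaves 1 library in a group, so only changes are given. With 1 library left out, the log2 ratio of 5p to 3p changed by -0.50 to -0.34 at miR-92a-1. It changed by 0.08 to 0.22 at miR-20a and by 0.06 to 0.13 at miR-17. With guide RNA as a replicate block 9 of the 94 were called and 0 of these 3, and with the block and the prior variance by depth miR-92a-1 was called (adjusted p = 0.038). Over the 94 hairpins the less abundant arm had the lower fold change in 53.2%, so the same order at all 3 hairpins of the cluster is a description.

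By seed, the make-up of the cluster's output differed by at most 2.14 percentage points between groups, with all 4 libraries used. The arms with the miR-17 seed (miR-17-5p and miR-20a-5p) held 48.3% ± 0.39 of the members' reads after knockdown and 46.1% ± 2.11 in controls (SD, n = 2). That difference was 3.63 points without control replicate 1 and 0.65 points without control replicate 2. With miR-19b-3p and miR-92a-3p left out, these arms held 94.1% of the remaining reads after knockdown and 94.0% in controls. That difference of 0.12 points is of a share with little room to move, so it is not comparable with the others. miR-19b-3p held 32.8% ± 0.88 after knockdown and 33.1% ± 1.47 in controls, a difference within the spread between libraries (-1.42 points without control replicate 1 and 0.66 without control replicate 2). miR-92a-3p held 15.6% and 16.3% after knockdown, against 17.2% and 18.3% in controls, and these groups did not overlap. The other 5 arms together held 3.02% ± 0.03 after knockdown and 2.95% ± 0.12 in controls. With 2 libraries a group the smallest two-sided p of an exact permutation test is 0.33.

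Within those minor arms the miR-18a-3p share of the members' reads was 0.80% in both knockdown libraries, against 0.60% and 0.53% in controls. The miR-19a-5p share was 0.07% in both knockdown libraries and 0.12% in both controls. These shares need no scaling between libraries, and they moved in opposite directions. A member that falls less than the others gains share, so a higher share alone is not a rise in level. Relative to the bulk of miRNAs, miR-18a-3p had a log2 fold change of -0.06 ± 0.06 (SE) and was not called.

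Relatives of these miRNAs from other loci were either hardly present or had changes mostly nearer to 0, a difference that was not tested. Of 12 names in the miR-106a-363 cluster of chromosome X, 3 passed the filter. Of these, 2 were the shared miR-19b-3p and miR-92a-3p, and the third was miR-106a-5p, counted 19 and 23 times after knockdown, against 12 and 23 times in controls (-0.42 ± 0.32, adjusted p = 0.29). miR-92a-2-5p, the strand opposite miR-92a-3p on chromosome X, had 1 read in each knockdown library and 0 in each control, where 3 reads are the limit that 0 allows. Its counterpart here, miR-92a-1-5p, was counted 2099 and 2230 times after knockdown, against 2206 and 3730 times in controls. The X cluster's own miR-363-3p was counted 5 and 9 times after knockdown, against 3 and 2 times in controls, and its miR-20b-5p 3 and 5 times, against 1 and 1.

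In the miR-106b-25 cluster of chromosome 7, 5 of 6 members fell and 0 rose, against 25.2% and 25.6% of all tested miRNAs, with a median log2 fold change of -0.26. miR-25-5p moved most, with 109.8 and 125 CPM after knockdown against 348 and 307 CPM in controls (-1.47 ± 0.10, adjusted p = 1.7e-08). The others lay between -0.31 (miR-106b-5p) and -0.17 (miR-93-5p), with miR-93-3p at -0.29, miR-25-3p at -0.23 and miR-106b-3p, not called, at -0.19 (adjusted p = 0.076). The count of 5 depended on the library left out, as did the calls over all tested miRNAs. Such a fit leaves 1 library in a group, so its counts are not given.

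Across the miR-17 seed family 4 of 6 tested members fell and 1 rose, against 25.2% and 25.6% of all tested miRNAs. The 4 were miR-20a-5p, miR-17-5p, miR-106b-5p and miR-93-5p, and the 1 was miR-519d-3p of the placental chromosome 19 cluster (31.2 and 23.4 CPM after knockdown, 13.5 and 12.5 CPM in controls), named after its values were seen. The count of 4 likewise depended on the library left out, as did the calls over all tested miRNAs. In the miR-92 seed family 3 of 4 fell, against 25.2% of all tested miRNAs, with miR-92a-3p ahead of miR-92b-3p (-0.31 ± 0.06, adjusted p = 4.0e-04) and miR-25-3p, and miR-32-5p at -0.00 ± 0.05 (adjusted p = 0.97). The count of 3 in this family depended on the library left out in the same way. miR-32-5p had 6434 and 6540.1 CPM after knockdown, against 6578 and 6422 CPM in controls.

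The hairpins themselves differ in their predicted fold. RNAfold gave -0.30 kcal/mol per base for miR-18a, against -0.40 for miR-17, -0.44 for miR-20a and miR-19b-1, -0.46 for miR-92a-1 and -0.47 for miR-19a, where a lower value is a more stable fold. The median over 1562 RefSeq hairpins was -0.45, and 92% of them were at least as stable as miR-18a. In miR-18a and miR-17, 21.7% and 22.2% of the bases of the mature arms were unpaired, against 6.67% to 8.89% in the other 4.

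Short motifs near hairpins that Drosha or its cofactors are known to read were searched on the transcript strand. UGU stood in the loop between the arms of 5 of the 6 hairpins, all but miR-18a, and in 33.7% of 739 hairpins with both arms annotated. CNNC with its first base 16 to 18 bases past the 3p arm stood at 3 of the 6 (miR-17, miR-19a and miR-20a), and at 44 of 110 hairpins within an exon. UG at 14 or 13 bases before the 5p arm stood at miR-19a alone, and at 21.8% of those 110. All 3 motifs stood at miR-19a and none at miR-18a in these windows. No relation between motifs or folds and the changes was tested.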

How the data were processed

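Small RNA was gel-purified from total RNA extracted with TRIzol, per the labels. The authors deposited raw read counts, 1 whole number per mature miRNA and library, with 2368 rows of which 2 are spike-ins by name. No trimming tool, aligner, miRNA annotation or genome build is given in the sources used here. Members and lists were chosen with earlier results of these data known.

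Counts without spike-ins were filtered with filterByExpr (edgeR 4.0.16, R 4.3.3; minimum count 10, total 15), which kept 464 miRNAs, scaled with TMM and tested without a block (SE is the log2 fold change over the root of F). Ratios of counts, each with 0.5 added, were tested with limma 3.58.1. Hairpins and sequences came from RefSeq (GRCh38.p14), where 1868 of the miRNA names matched. Clusters join hairpins within 10 kb on 1 strand. Folds came from RNAfold 2.7.2. The tests were checked on simulated counts with as many rises as falls, a check that does not bear on the choice of scaling. DESeq2 1.42.0, other scalings and filters, a block and left-out libraries were tried as alternatives.

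Samples with 1 replicate number share a guide RNA and its polyclonal line, so they are paired by design. Same-numbered deviations correlated at -0.11. Within each group the libraries were not one library deposited again (chi-square over its degrees of freedom was 4.62 in knockdown and 12.3 in control). A floor of 3 reads, 1.21 to 2.10 CPM, bounds a count of 0 and covers counting error only. Named miRNAs were all members, tested miRNAs of both paralogous clusters, seed relatives with a mean of at least 100 CPM in controls, and the spike-ins. Outside this rule miR-519d-3p, miR-363-3p, miR-20b-5p and miR-92a-2-5p were named after their values were seen, and miR-451a and miR-122-5p as marks of cell type.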

Additional observations from a re-analysis of the deposited data

Results flagged for a closer look

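The change of miR-18a-3p had opposite signs within the 2 guide RNAs, with a log2 ratio of -0.13 for guide RNA 1 and 0.018 for guide RNA 2. The count ratio of miR-20a-5p to miR-19b-3p also moved in opposite directions, by -0.082 on the log2 scale with guide RNA 1 and by 0.18 with guide RNA 2. With 1 library per guide RNA and condition, neither difference was tested.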

How the results depend on the processing

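Direction rests on the scaling. Of the 9 members 8 fell as reported, 5 with library size, 0 with spike-ins and 2 with spike-ins and a replicate block. Their median log2 fold change was -0.64 with DESeq2 or RLE, -0.57 without a filter, -0.54 with at least 10 CPM, -0.62 without miR-19b-3p, -0.15 with library size, 0.093 with spike-ins and 0.11 with spike-ins and the block, and -0.63 to -0.55 when 1 library was left out. miR-18a-3p turned to 0.38 with library size. With spike-ins alone and with the block, values turned to 0.24 and 0.24 for miR-17-5p, 0.14 and 0.14 for miR-17-3p, 0.64 and 0.64 for miR-18a-3p, 0.16 and 0.16 for miR-20a-5p, 0.028 and 0.012 for miR-20a-3p, and 0.093 and 0.11 for miR-19b-3p. Falls in the miR-106b-25 list numbered 1 with library size, 0 with spike-ins and 1 with the block added (1 to 6 with 1 library left out). In the miR-17 seed family they numbered 0, 0 and 0 (2 to 4), and in the miR-92 seed family 1, 0 and 0 (1 to 3). In the miR-19 seed family and the miR-106a-363 list both spike-in scalings gave 0, and leaving out miR-19b-3p gave 0 and 1. The cause was not tested.

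All tested miRNAs gave 236 calls, 146 with DESeq2 (32.2% of them higher after knockdown) and 117 to 195 with 1 library left out. The replicate block without spike-ins gave 230, with 8 members falling, and the crossed pairing gave 241. TMM factors from the other miRNAs, chosen after seeing the data, left 8 falling. Arm ratios gave 0 calls, 12 with a prior variance by depth and 9 with the replicate block. Hairpin ratios gave 0 calls, 32 with the depth prior, 23 with clusters joined within 3 kb, and 0 to 44 with 1 library left out. Without miR-19b-3p and miR-92a-3p the share of the minor arms differed by -0.12 percentage points in place of 0.07. No call of a member changed with the replicate block alone.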
